A study of Mus musculus with 9 samples.

Results

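The BCL2 family of apoptosis regulators was described here through 10 genes taken by their symbols, Bcl2, Bcl2l1, Mcl1, Bax, Bak1, Bbc3, Pmaip1, Bcl2l11, Bid and Bad, and 10 of 10 were found among the 20731 gene symbols of the count table. The mice were male C57BL/6J animals of 8 to 10 weeks with cerebral venous sinus thrombosis (CVST), induced in every group with ferric chloride on the superior sagittal sinus, and RNA was sequenced from the brain on day 2 after modelling. The CVST group had the thrombosis alone, the CVST+Ligation group also had its deep cervical lymph nodes ligated to block meningeal lymph drainage, and the 4-PBA group had both procedures and the endoplasmic reticulum (ER) stress inhibitor 4-phenylbutyric acid at 100 mg/kg. The methods put the injection 30 min before modelling and the data set's description puts it after ligation. Control mice received the solvent according to the methods. The word may mean the study's own Control group, which is not compared here, and whether it covers any group compared here is unclear. The labels name brain without a region, and the description names cortex. Each group had 3 libraries, each from 1 mouse, and no library from mice without thrombosis is part of the comparisons.

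Proteins of the BCL2 family decide whether the outer mitochondrial membrane is opened to release cytochrome c, which starts the caspase cascade. Anti-apoptotic members hold the pore-forming effectors in check, and BH3-only members, made or activated by DNA damage, loss of growth factors or ER stress, either block the guardians or switch on the effectors. Mature neurons restrain this pathway tightly and rely on BCL-XL, the long product of Bcl2l1, for survival.

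The CVST libraries held 24166917, 22574739 and 19392081 counted reads. The CVST+Ligation libraries held 24157584, 18835705 and 23358349, and the 4-PBA libraries 18100739, 23623769 and 25091498. Levels compared between groups are CPM, read counts scaled to library size by edgeR's TMM method, and levels compared between genes are the deposited FPKM, which are corrected for length. At this depth a floor of 3 counts corresponded to 0.114 to 0.163 CPM, which covers counting error only. All 10 genes had counts in every library and passed the filter on low counts, which kept 14746 genes. The lowest count of any of them was the 4 reads of Pmaip1 in CVST+Ligation replicate 2.

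Over the 9 libraries the family spanned a wide range of FPKM levels. Bcl2l1, the source of the guardian BCL-XL, was the most abundant member with 99.6 ± 8.31 FPKM (SD, n = 9) and lay at percentile 89.2 of the genes tested. Mcl1, a short-lived guardian, followed with 38.6 ± 9.16 FPKM, and Bad, a BH3-only gene whose protein is held inactive by survival kinases, with 36.1 ± 3.47 FPKM. Both effectors were in the middle of the order, Bax with 22.6 ± 5.98 FPKM and Bak1 with 17.2 ± 3.11 FPKM. Bid, the BH3-only gene that links death receptors to mitochondria, stood at 12.2 ± 1.84 FPKM. The scarce members were Bcl2 with 3.54 ± 1.4 FPKM, Bbc3 with 2.37 ± 0.308, Pmaip1 with 2.09 ± 1.23 and Bcl2l11 with 1.68 ± 0.625, the last at percentile 15 of the genes tested. Of the 9 neighbouring pairs in this order, only 2 had FPKM ranges that did not overlap over the libraries. They were Bcl2l1 above Mcl1 (lowest 85.3 against highest 55.6 FPKM) and Bid above Bcl2 (lowest 8.86 against highest 6.44 FPKM). Bad was above Bax in each of the 9 libraries, although their ranges overlapped, and each of the other 6 pairs changed order in at least 1 library.

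Among the 3 guardians of the list, Bcl2l1 made up 65.3% to 76.3% of the summed FPKM in each library, and Bcl2, which gave the family its name, was the scarcest. Among the 5 BH3-only genes, Bad made up 58.2% to 70.7% of the summed FPKM. The steadiest members over the libraries were Bcl2l1 and Bad, with coefficients of variation in CPM of 8.29% and 8.74%. Pmaip1 varied most, with 60.5%, followed by Bcl2 with 38.2% and Bcl2l11 with 35.7%. The lengths behind the FPKM values equal the coding length of the gene models for 10 of 10 members and for 96.6% of the 16796 genes matched, so the long untranslated regions are not in them. For Bcl2 the coding length is 729 bases, 7.96% of its exons, and for Bax it is 614 bases, 39% of its exons. Whether reads in untranslated regions were counted is not given, so FPKM order between members of unlike coding share carries that limit.

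**Figure D1:**
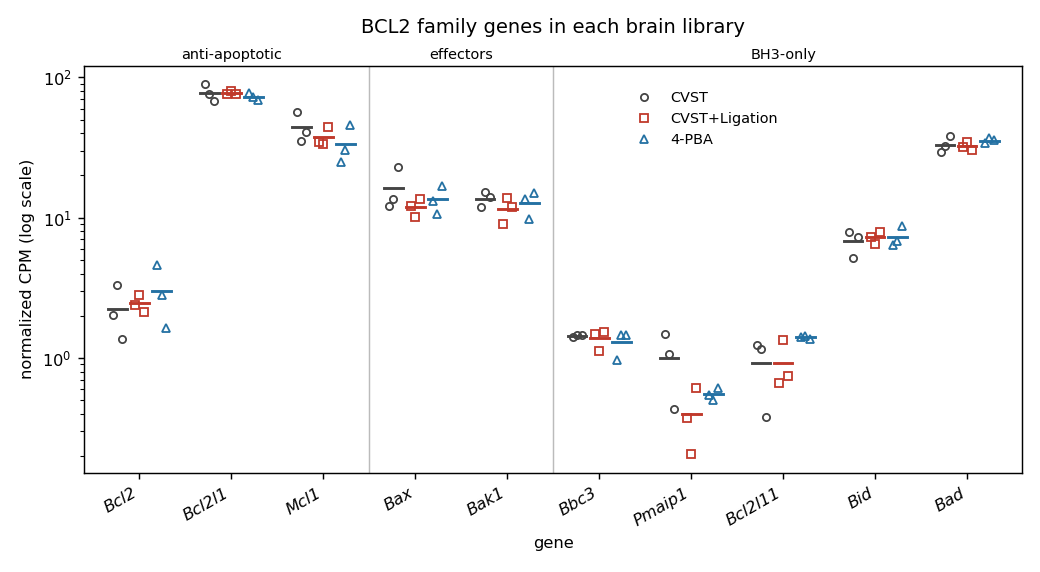
Normalized CPM (log axis) of the 10 BCL2 family genes, with 1 point per library in the CVST, CVST+Ligation and 4-PBA groups and bars at the group means. Bcl2l1 lies highest in every library, from 68.4 to 89.5 CPM, and the groups overlap for most genes, while the 4-PBA points of Bcl2l11 lie together from 1.37 to 1.43 CPM.

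The comparison of CVST+Ligation with CVST covers the ligation together with its neck surgery, since the methods describe no sham neck operation for CVST mice. Markers of brain regions also differed between these groups, as given below, so blocked lymph drainage is not isolated. Bcl2l1, on chromosome 2 (GRCm38 chr2:152780668-152831728, minus strand), stood at 89.5, 75.7 and 68.4 CPM in the CVST libraries. The CVST+Ligation libraries held 75.6, 79.9 and 76 CPM, inside the CVST range. With 4-PBA it stood at 77.1, 72.1 and 69.3 CPM, and the 3 groups overlapped. Its log2 difference between CVST+Ligation and CVST was -0.013 (SE 0.127), with a 95% interval from -0.30 to 0.27 that held no change of 2-fold or more. Total-count scaling and limma on log2(FPKM) turn this sign, with values near 0.

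Mcl1 (GRCm38 chr3:95658788-95663176, plus strand) encodes a guardian that is degraded quickly when translation stops. It stood at 56.7, 35 and 40.9 CPM in CVST, at 34.6, 33.5 and 44.4 CPM in CVST+Ligation and at 24.9, 30.5 and 45.6 CPM with 4-PBA. The single highest library was CVST replicate 1 and the lowest 4-PBA replicate 1, and the ranges of all 3 groups overlapped. The log2 difference was -0.24 (SE 0.256) between CVST+Ligation and CVST, with a 95% interval from -0.81 to 0.34. For 4-PBA against CVST it was -0.39 (SE 0.257, adjusted p = 0.511, edgeR's quasi-likelihood test with adjustment by Benjamini-Hochberg). Without 4-PBA replicate 3 the latter was -0.67 with an unadjusted p of 0.0234, and the adjusted p was 0.236, the lowest of a range up to 0.876 over the alternatives, by edgeR (quasi-likelihood test, Benjamini-Hochberg adjusted).

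Bcl2 (GRCm38 chr1:106538178-106714274, minus strand) was measured with few reads, 25 to 85 per library. CVST libraries held 2.04, 3.33 and 1.36 CPM of it, CVST+Ligation libraries 2.4, 2.83 and 2.11 CPM, and 4-PBA libraries 4.61, 2.82 and 1.64 CPM. The CVST+Ligation values lay inside the CVST range, and 4-PBA replicate 1 was above all other libraries. Group means were 2.24 ± 1, 2.45 ± 0.365 and 3.02 ± 1.49 CPM (SD, n = 3). The log2 difference of CVST+Ligation from CVST was 0.12 with a 95% interval from -0.89 to 1.14, which held a 2-fold increase, so one of that size in Bcl2 was not resolved at this depth and spread. That difference was -0.15 without CVST replicate 3 and 0.52 without CVST replicate 2. Its 4-PBA difference from CVST+Ligation was 0.30 (SE 0.45), -0.12 without 4-PBA replicate 1 and 0.60 without 4-PBA replicate 3.

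The effectors Bax and Bak1 encode the proteins that form the mitochondrial pore. Bax (GRCm38 chr7:45461697-45466898, minus strand) stood at 12.1, 13.7 and 23 CPM in CVST, at 12.2, 10.1 and 13.6 CPM in CVST+Ligation and at 13.1, 10.6 and 16.8 CPM with 4-PBA. CVST replicate 3 was the highest of the 9 libraries, and the other CVST libraries lay among those of the ligated mice. The log2 difference of Bax between CVST+Ligation and CVST was -0.44 (SE 0.279), lower after ligation, with a 95% interval from -1.06 to 0.19. Its adjusted p was 0.638 by edgeR (quasi-likelihood test, Benjamini-Hochberg adjusted). Most of the difference came from CVST replicate 3, without which it was -0.125. Between 4-PBA and CVST+Ligation the log2 difference of Bax was 0.18 with a 95% interval from -0.45 to 0.80, and -0.015 without 4-PBA replicate 3. In bulk tissue, fewer cells of a type and less RNA per cell cannot be told apart for any of these genes.

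Bak1 (GRCm38 chr17:27019810-27029009, minus strand) stood at 11.9, 15.2 and 14.1 CPM in CVST and at 9.09, 13.8 and 12 CPM in CVST+Ligation. With 4-PBA it held 13.5, 9.85 and 15.1 CPM. Its lowest libraries were 1 of CVST+Ligation and 1 of 4-PBA, and all 3 groups overlapped. Bak1 differed by -0.24 on the log2 scale between CVST+Ligation and CVST, with a 95% interval from -0.75 to 0.27, and by 0.14 between 4-PBA and CVST+Ligation.

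The BH3-only gene Bbc3 encodes PUMA, a p53 and ER stress target that binds all the guardians. The study measured its transcript by PCR and its protein by immunofluorescence and Western blot. Bbc3 (GRCm38 chr7:16308393-16318205, plus strand) stood at 1.4, 1.46 and 1.46 CPM in CVST, at 1.49, 1.13 and 1.54 CPM in CVST+Ligation and at 0.975, 1.47 and 1.45 CPM with 4-PBA. Of the 9 libraries, 7 lay between 1.4 and 1.54 CPM, and the lower ones were CVST+Ligation replicate 2 and 4-PBA replicate 1. Counts were 18 to 38 reads per library. The group means were 1.44 ± 0.0356, 1.39 ± 0.22 and 1.3 ± 0.28 CPM (SD, n = 3). The log2 difference between CVST+Ligation and CVST was -0.055, with a 95% interval from -0.83 to 0.72, and between 4-PBA and CVST+Ligation it was -0.091, with an interval from -0.86 to 0.68. These intervals held changes of 1.5-fold in either direction.

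The sequence that the study's PCR reads was placed on the transcript models, since it shows which part of Bbc3 that assay sees. The PUMA primers, of 19 and 18 bases, occurred together in the right order in 1 gene, Bbc3, out of 141767 transcripts searched, and in 2 of the 4 Bbc3 transcripts. Both lie in exon 3 of Bbc3-201, and the product of 153 bases (GRCm38 chr7:16313645-16313797, plus strand) is coding throughout in that transcript. In the other, Bbc3-203, the same product lies in exon 1 and is not all coding. Capitals mark the primer sites.
Bbc3 product: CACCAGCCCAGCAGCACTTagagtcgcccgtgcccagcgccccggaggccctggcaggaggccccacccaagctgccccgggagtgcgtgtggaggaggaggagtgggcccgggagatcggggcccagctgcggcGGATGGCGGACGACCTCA
In Bbc3-201 the PCR product lies within the coding sequence.

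Pmaip1, which encodes NOXA, a BH3-only protein that pairs with MCL1 and leads to its degradation, was the only member below an unadjusted p of 0.05 in any of the comparisons. It stood at 1.49, 1.06 and 0.434 CPM in CVST, at 0.372, 0.206 and 0.615 CPM in CVST+Ligation and at 0.542, 0.505 and 0.61 CPM with 4-PBA. CVST replicates 1 and 2 were the highest of all libraries, while CVST replicate 3 lay among the CVST+Ligation values, so the groups overlapped. These levels rest on 35, 24 and 8 reads in CVST against 9, 4 and 14 reads in CVST+Ligation. The log2 difference was -1.31 (SE 0.579), lower after ligation, with a 95% interval from -2.61 to -0.012 and an unadjusted p of 0.0483. The adjusted p was 0.516 by edgeR (quasi-likelihood test, Benjamini-Hochberg adjusted), so Pmaip1 did not pass the test over all genes. Its unadjusted p moved above 0.05 without CVST replicate 1 (0.195), CVST replicate 2 (0.1), CVST+Ligation replicate 1 (0.113) or CVST+Ligation replicate 2 (0.137), and was 0.0544 in DESeq2. The difference of 4-PBA from CVST+Ligation was 0.46 with a 95% interval from -0.86 to 1.78, and ran from 0.18 without CVST+Ligation replicate 2 to 0.91 without CVST+Ligation replicate 3.

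Bcl2l11 encodes BIM, the BH3-only protein that neurons make after loss of trophic support. Bcl2l11 (GRCm38 chr2:128126038-128162547, plus strand) stood at 1.23, 1.15 and 0.38 CPM in CVST, at 0.661, 1.34 and 0.747 CPM in CVST+Ligation and at 1.41, 1.43 and 1.37 CPM with 4-PBA. Each of the 3 libraries with 4-PBA was above each of the other 6, by a margin as small as 1.37 against 1.34 CPM. The 4-PBA libraries were close to each other (1.4 ± 0.0298 CPM, SD, n = 3), on 26 to 36 reads, whereas the CVST libraries ran from 7 to 29 reads. The log2 difference between 4-PBA and CVST+Ligation was 0.62 (SE 0.501), with a 95% interval from -0.50 to 1.74. It was 0.445 without CVST+Ligation replicate 1 and 1.0 without CVST+Ligation replicate 2. Against CVST it was 0.59, with an interval from -0.53 to 1.71, and 0.22 without CVST replicate 3. The adjusted p against CVST+Ligation was 1 by edgeR (quasi-likelihood test, Benjamini-Hochberg adjusted), so the separation of the libraries did not pass the test.

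The remaining BH3-only genes were Bid and Bad. Bid (GRCm38 chr6:120891930-120916853, minus strand) stood at 7.86, 5.19 and 7.27 CPM in CVST, at 7.27, 6.54 and 7.96 CPM in CVST+Ligation and at 6.39, 6.82 and 8.76 CPM with 4-PBA. Its lowest library was CVST replicate 2 and its highest 4-PBA replicate 3, and the groups overlapped. Bad (GRCm38 chr19:6941861-6951899, plus strand) held 29.3, 32.3 and 38.1 CPM in CVST, 31.8, 34.9 and 30.4 CPM in CVST+Ligation and 33.9, 36.9 and 35.5 CPM with 4-PBA. Both the lowest and the highest Bad level belonged to CVST, whose range enclosed the other groups. The log2 difference of Bad between CVST+Ligation and CVST was -0.038 with a 95% interval from -0.36 to 0.28, and that of Bid was 0.10 with an interval from -0.42 to 0.62. Signs this close to 0 turn for Bad with total-count scaling and with limma on log2(FPKM), and for both genes with single libraries left out.

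**Figure D2:**
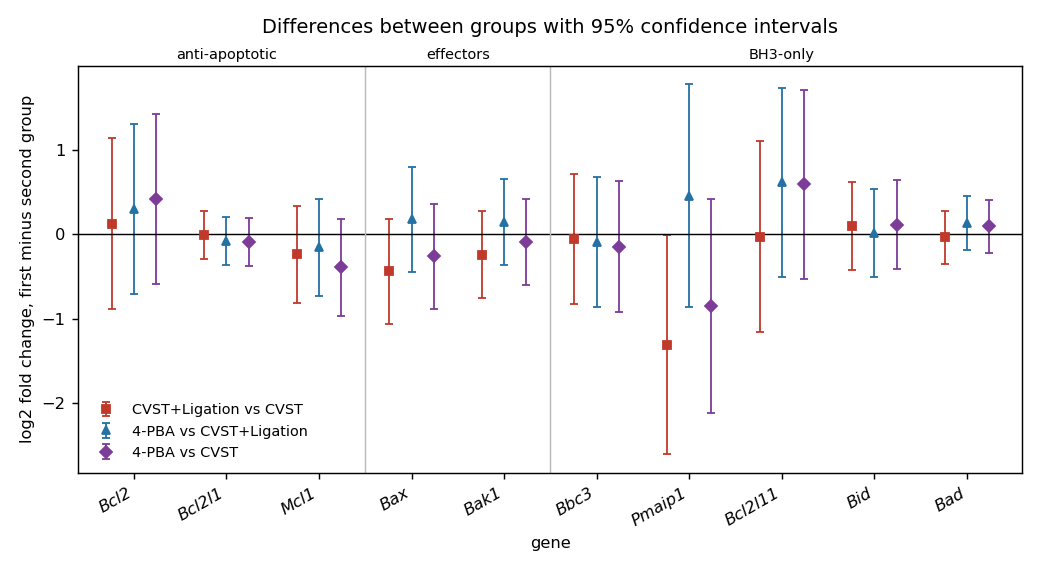
Log2 fold change (vertical axis) of each BCL2 family gene in the 3 comparisons, as points with 95% intervals from the edgeR model. Only the interval of Pmaip1 between CVST+Ligation and CVST does not hold 0, running from -2.61 to -0.012, and the intervals of Bcl2, Pmaip1 and Bcl2l11 are the widest.

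Counted over the family, 1 of 10 members (Pmaip1, lower) was below an unadjusted p of 0.05 between CVST+Ligation and CVST, where 9.64% of all genes tested were, 1422 of 14746. After adjustment 0 of 10 members passed edgeR's quasi-likelihood test (adjusted by Benjamini-Hochberg), against 0.0203% of all genes, and DESeq2 called 0 members at either threshold. The groups of 0 members were without overlap, against 13.8% of all genes. The median log2 difference was -0.047 over the members, 2 of which were above 0, and 0.0021 over all genes, of which 50.3% were above 0. The 95% interval lay within a change of 2-fold for 6 of 10 members, and for Bcl2, Bax, Pmaip1 and Bcl2l11 it did not.

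The comparison of 4-PBA with CVST+Ligation sets ligated mice given the ER stress inhibitor against ligated mice whose solvent treatment is unclear. Hypothalamic markers also differed between these groups, as given below, so the inhibitor is not isolated. In this comparison, 0 of 10 members were below an unadjusted p of 0.05 in edgeR's quasi-likelihood test, against 3.23% of all genes, 476 of them. The gene count was 1497 without CVST+Ligation replicate 2 and 256 without 4-PBA replicate 2, and the member count was 0 in both. The adjusted test called 0 members and 0% of all genes with edgeR (quasi-likelihood test, Benjamini-Hochberg adjusted), and DESeq2 called 0 members unadjusted and adjusted, with 22 genes adjusted. Groups without overlap were found for 1 of 10 members, Bcl2l11, against 7.73% of all genes. Of the members, 7 had a log2 difference above 0, with a median of 0.14 against -0.017 over all genes. The interval lay within 2-fold for 7 of 10.

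Between 4-PBA and CVST, which shares its CVST libraries with the first comparison and its 4-PBA libraries with the second, 0 of 10 members were below an unadjusted p of 0.05 in edgeR's quasi-likelihood test, against 15.4% of all genes. Without 4-PBA replicate 3 the count was 1, Mcl1, with an unadjusted p of 0.0234, against 15.7% of all genes under that setting. After adjustment the count was 0 of 10 by edgeR (quasi-likelihood test, Benjamini-Hochberg adjusted), against 0.122% of all genes, and DESeq2 called 0 at either threshold while it called 855 genes after adjustment. Groups without overlap were those of 1 member, Bcl2l11, against 23.7% of all genes. The median log2 difference of the members was -0.097 and that of all genes -0.0084. A p that misses the threshold does not show that levels were the same, and for Bcl2, Pmaip1 and Bcl2l11 the intervals in this comparison reached beyond 2-fold.

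The balance of BAX and BCL2, which the study also followed as proteins, was computed as the ratio of Bax to Bcl2 in FPKM. It was 7.02, 4.88 and 20.1 in CVST, 6.04, 4.23 and 7.64 in CVST+Ligation and 3.38, 4.47 and 12.2 with 4-PBA. The groups overlapped, and CVST replicate 3 and 4-PBA replicate 3 stood above the rest. Group means were 10.7 ± 8.26, 5.97 ± 1.71 and 6.67 ± 4.8 (SD, n = 3). Without CVST replicate 3 the CVST mean was 5.95, close to that of CVST+Ligation, and without 4-PBA replicate 3 the 4-PBA mean was 3.92. Those libraries, CVST replicate 3 and 4-PBA replicate 3, also had the highest summed FPKM, 879696 and 837260 against 780195 to 829202 in the others, and the part of this in the ratio was not tested. The ratio of the summed FPKM of Bcl2, Bcl2l1 and Mcl1 to that of Bax and Bak1 was 4.96, 3.26 and 2.35 in CVST, 4.28, 4.07 and 3.84 in CVST+Ligation and 3.35, 4.23 and 2.91 with 4-PBA. Its highest and lowest values were both in CVST. This changes when Bok, a further effector outside the 10 members, is added to Bax and Bak1, a choice made after seeing the data. The ratio was then 1.59, 1.57 and 1.18 in CVST, 2.05, 2.84 and 1.79 in CVST+Ligation and 1.83, 2.27 and 1.42 with 4-PBA. All CVST values were then below all CVST+Ligation values, the highest being that of CVST+Ligation replicate 2, where Bok was lowest, and the 4-PBA values overlapped both.

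The other members of the wider family were read from lists by protein class. The list of BCL2-like and BNIP genes also held genes such as Bclaf1 that do not encode BCL2 family proteins. Of the anti-apoptotic genes, 7 were tested, and 0 were below an unadjusted p of 0.05 between CVST+Ligation and CVST by edgeR's quasi-likelihood test or DESeq2, with a median log2 difference of -0.021. Bcl2l10 had 0 counts in every library, which allows up to 0.114 to 0.163 CPM. The largest differences of this class between 4-PBA and CVST+Ligation were those of Bcl2a1a (1.48) and Bcl2a1b (0.90), guardians of blood and immune cells that are near-identical copies with uncertain counts, on 0 to 26 reads. Without CVST+Ligation replicate 3 Bcl2a1a had 3.16 with an unadjusted p of 0.0218, and limma gave 0.0252 and 0.0434 at pseudocounts of 1 and 0.1. Bcl2a1b had the smallest p of the class between CVST+Ligation and CVST, with a log2 difference of -0.83. Among the 3 effectors, Bok, a relative of Bax and Bak1 that is regulated by degradation, was lower after ligation. Bok stood at 53.5, 32.1 and 39.6 CPM in CVST, at 24.5, 10.7 and 30.9 CPM in CVST+Ligation and at 23.1, 18.6 and 35.5 CPM with 4-PBA. All CVST+Ligation libraries were below all CVST libraries, by a margin of 30.9 against 32.1 CPM, and the 4-PBA libraries overlapped both. Of all genes, 13.8% had groups without overlap in this comparison and 9.64% an unadjusted p below 0.05, against 33.3% of the effectors. The log2 difference of Bok was -0.92 (SE 0.384, unadjusted p 0.0385), and the adjusted p was 0.493 by edgeR (quasi-likelihood test, Benjamini-Hochberg adjusted). The effector count at an unadjusted p below 0.05 went from 1 to 0 without CVST replicate 1, CVST replicate 3, CVST+Ligation replicate 1 or CVST+Ligation replicate 2.

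Of the BH3-only genes, 6 were tested, with 1 (Pmaip1) lower and 0 higher between CVST+Ligation and CVST at an unadjusted p below 0.05, 16.7% of the list against 9.64% of all genes, and DESeq2 called 0. Bmf, whose protein is released from the cytoskeleton, had a log2 difference of 0.84 (adjusted p = 0.743, edgeR's quasi-likelihood test with adjustment by Benjamini-Hochberg), on 5 to 44 reads. It stood at 0.34, 0.576 and 0.759 CPM in CVST and at 0.537, 2.27 and 0.22 CPM in CVST+Ligation, so that 1 library carried the difference, which was -0.54 without CVST+Ligation replicate 2. Bik and Hrk were too low to be tested. The BCL2-like and BNIP genes, 8 tested, had 0 below that threshold by edgeR's quasi-likelihood test or DESeq2, with a median of -0.055. Without CVST+Ligation replicate 2 Bclaf1 had 0.57 there with an unadjusted p of 0.0015, and the count with single libraries left out ran from 0 to 1. Bnip1, a SNARE-associated relative, had the smallest p with a log2 difference of -0.26, followed by Bnip3 with -0.22. Bnip3, a hypoxia-induced mitophagy receptor, stood at 120, 140 and 129 CPM in CVST, at 95.9, 124 and 115 CPM in CVST+Ligation and at 100, 108 and 96.4 CPM with 4-PBA. The 4-PBA libraries were all below the CVST libraries, with a log2 difference of -0.35 (adjusted p = 0.238, edgeR's quasi-likelihood test with adjustment by Benjamini-Hochberg). Bnip3 was the 1 gene of this class below an unadjusted p of 0.05 in 4-PBA against CVST, against 15.4% of all genes. It was no longer below 0.05 without CVST replicate 2 (0.0935), 4-PBA replicate 1 (0.0704) or 4-PBA replicate 3 (0.078), with total counts (0.0648), or with limma at pseudocounts of 1 (0.0547) and 0.1 (0.0569). In 4-PBA against CVST+Ligation, 0 tested genes of the guardians, the effectors, the BH3-only genes, and the BCL2-like and BNIP genes were below that threshold. This held for edgeR's quasi-likelihood test and for DESeq2, and the medians were -0.073, 0.18, 0.072 and -0.09. Of all genes, 3.23% were below it by edgeR and 3.87% by DESeq2 in this comparison. The list of BCL2-like and BNIP genes was led there by Bcl2l13 (log2 difference -0.24) and Bclaf1 (-0.29). Bclaf1 had -0.55 with an unadjusted p of 0.00188 without CVST+Ligation replicate 2.

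Downstream of the family, the apoptosome and executioner genes (19 tested, among them Apaf1 and Cycs) had 0 below an unadjusted p of 0.05 in edgeR's quasi-likelihood test in each of the 3 comparisons, and 0, 0 and 1 in DESeq2. Of all genes, 9.64%, 3.23% and 15.4% were below it in edgeR, and 11.4%, 3.87% and 17.6% in DESeq2. Their medians were -0.057, 0.029 and -0.024. The smallest p values between CVST+Ligation and CVST belonged to genes of the inhibitor of apoptosis family, Birc3 with a log2 difference of -0.84 and Xiap with 0.58. Their adjusted p values were 0.567 and 0.574 by edgeR (quasi-likelihood test, Benjamini-Hochberg adjusted). Without CVST+Ligation replicate 2 the list had 2 genes below an unadjusted p of 0.05, Birc3 with -1.32 (0.0124) and Apaf1 with 0.87 (0.00666). Of all genes, 8.07% were below it in that setting. With the replicate number as a block the p of Birc3 was 0.0423 and that of Xiap 0.0119. Between 4-PBA and CVST+Ligation the list was led by Parp1, a DNA repair enzyme cut during apoptosis, with a log2 difference of -0.29, and Apaf1, the scaffold of the apoptosome, with -0.48. Apaf1 stood at 34.3, 13 and 21.8 CPM in CVST+Ligation against 19.7, 16.8 and 13.3 CPM with 4-PBA, with overlap. Without CVST+Ligation replicate 2, its lowest library there, the unadjusted p was 0.0143 for Apaf1 and 0.0126 for Parp1. In 4-PBA against CVST the count ran from 0 to 2 with single libraries left out. Casp6 had -0.89 (0.0298) and Diablo 0.55 (0.0302) without 4-PBA replicate 3, and Casp6 was at 0.0261 without CVST replicate 1 and at 0.0458 in DESeq2. Diablo was at 0.0413 with total counts and at 0.0436 and 0.0433 with limma at pseudocounts of 1 and 0.1.

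Upstream, the kinases, chaperones and ubiquitin ligases that act on BCL2 proteins (29 tested) had 1 gene lower and 0 higher between CVST+Ligation and CVST at an unadjusted p below 0.05. It was Fbxw7, the ligase subunit that marks MCL1 for degradation, with a log2 difference of -0.40 (SE 0.171), and DESeq2 called 3 of the list. The 1 gene is 3.45% of the list, against 9.64% of all genes. Beside the 3 of 29 in DESeq2, the share of all genes with that tool was 11.4%. Its unadjusted p was above 0.05 without CVST replicate 2 (0.0706), CVST replicate 3 (0.0993) or CVST+Ligation replicate 2 (0.121), with total counts (0.0503) or with only the groups compared (0.0679). Mapk10, a neuronal JNK kinase, was next with a log2 difference of -0.27, and without CVST replicate 3 its unadjusted p was 0.0184. Between 4-PBA and CVST+Ligation the 1 gene was Pim3, a kinase that phosphorylates BAD, higher by 0.53 (SE 0.196). Pim3 stood at 12, 18.5 and 18.5 CPM in CVST+Ligation and at 21.2, 25 and 24.4 CPM with 4-PBA, above in all 3 libraries, while the CVST libraries at 21.2, 20.4 and 24.6 CPM lay with the latter. That call also covers 3.45% of the list, against 3.23% of all genes, and was lost without CVST+Ligation replicate 1 (0.069), 4-PBA replicate 2 (0.0693) or 4-PBA replicate 3 (0.0606). Mapk10 followed with a log2 difference of -0.26. In CVST+Ligation against CVST, Pim3 was lower at an unadjusted p below 0.05 in DESeq2 (0.0398) and with the replicate block (0.0299). The same held without CVST+Ligation replicate 2 (0.0339) or CVST+Ligation replicate 3 (0.044), but not in the main fit. Against CVST the 4-PBA group had 5 genes lower, Mapk10, Fbxw7, Ywhah, Akt2 and Mapk8, of which the last 3 were chosen after their values were seen. They are 17.2% of the list, near the 15.4% of all genes in this comparison. Fbxw7 was above 0.05 there without CVST replicate 3 (0.0516), 4-PBA replicate 1 (0.0719) or 4-PBA replicate 2 (0.0601). Mapk10 kept its call with each library left out, so at the lowest count of 1 Ywhah, Akt2 and Mapk8 had also lost theirs. The 5 genes include the JNK kinases Mapk8 (log2 difference -0.48) and Mapk10 (-0.54). With single libraries left out the count of this list ran from 0 to 3, from 0 to 6 and from 1 to 4 in the 3 comparisons. Of all genes, 8.07% to 11.1%, 1.72% to 10% and 10.1% to 16.3% were below 0.05 in those settings. These are also the shares beside such counts of the other lists.

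The p53 list (23 tested) had 2 genes lower and 0 higher between CVST+Ligation and CVST, Gadd45a with a log2 difference of -0.86 (SE 0.348) and Plk3 with -0.42 (SE 0.172), and DESeq2 called 3. The 2 genes are 8.7% of the list, near the 9.64% of all genes. Gadd45a, a stress-induced gene of growth arrest, stood at 21.3, 13.6 and 19 CPM in CVST, at 7.15, 8.25 and 14.2 CPM in CVST+Ligation and at 5.85, 11.8 and 12 CPM with 4-PBA. Only CVST+Ligation replicate 3 reached into the CVST range. Without CVST replicate 1, CVST replicate 3, CVST+Ligation replicate 1 or CVST+Ligation replicate 2 the unadjusted p was above 0.05 for Gadd45a (0.101, 0.07, 0.11 and 0.089) and for Plk3 (0.0966, 0.0824, 0.112 and 0.0775). Plk3 was also above it with only the groups compared (0.0676) and with limma at pseudocounts of 1 (0.0609) and 0.1 (0.0574). Trp53 itself, named outside the rule after its values were seen, held 41.4, 36.2 and 40.8 CPM in CVST against 35.3, 29.1 and 38.2 CPM in CVST+Ligation, with overlap. Between 4-PBA and CVST+Ligation the list had 0 genes below 0.05 in edgeR's quasi-likelihood test and 1 in DESeq2, against 3.23% and 3.87% of all genes. Its smallest p belonged to Btg2, an early antiproliferative gene, with 9.3, 20.4 and 13.5 CPM in CVST+Ligation against 5.31, 5.39 and 9.26 CPM with 4-PBA. All 4-PBA libraries were lower, by a margin of 9.26 against 9.3 CPM, with a log2 difference of -1.11, while CVST at 24.7, 4.88 and 13.5 CPM spanned both. Its unadjusted p was below 0.05 in DESeq2 (0.0362), with only the groups compared (0.0185) and without CVST+Ligation replicate 1 (0.0467) or 4-PBA replicate 3 (0.045). Sesn1, a p53 target of the antioxidant sestrin family, followed with -0.31, and without CVST+Ligation replicate 3 its unadjusted p was 0.0347. In 4-PBA against CVST, Phlda3 (0.76) and Polk (0.61) were higher and Plk3 (-0.48), Plk2 (-1.05) and Gadd45a (-0.86) lower at an unadjusted p below 0.05, and Phlda3, Polk and Plk2 were chosen after their values were seen. They are 21.7% of the list, against 15.4% of all genes. Gadd45a and Plk3 were above 0.05 there without CVST replicate 1 (0.11 and 0.0684), CVST replicate 3 (0.0734 and 0.0529) or 4-PBA replicate 1 (0.114 and 0.0816), and Plk3 with limma at a pseudocount of 1 (0.0503). Polk was above it without CVST replicate 2 (0.0638) or 4-PBA replicate 1 (0.0664), and Phlda3 without CVST replicate 1 (0.0525). The count of this list fell to 1 with a single library left out, which requires that Plk2 also lost its call there. Leaving out single libraries moved the list's counts from 0 to 4, from 0 to 1 and from 1 to 8 in the 3 comparisons.

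ER stress reaches the family through Ddit3, which encodes CHOP, a factor that induces Bbc3 and Bcl2l11. The ER stress list (18 tested) had 0 genes below an unadjusted p of 0.05 in edgeR's quasi-likelihood test and 0 in DESeq2, both between CVST+Ligation and CVST and between 4-PBA and CVST+Ligation. Of all genes, 9.64% and 3.23% were below it in edgeR in these comparisons, and 11.4% and 3.87% in DESeq2. Sesn2, a stress-induced sestrin, had the smallest p between CVST+Ligation and CVST. It stood at 10.3, 7.23 and 9.6 CPM in CVST, at 10.4, 13.5 and 11.4 CPM in CVST+Ligation and at 9.32, 8.54 and 10.5 CPM with 4-PBA. All CVST+Ligation libraries were above all CVST libraries, by a margin of 10.4 against 10.3 CPM, with a log2 difference of 0.38 (SE 0.205), and the adjusted p was 0.587 by edgeR (quasi-likelihood test, Benjamini-Hochberg adjusted). From CVST+Ligation to 4-PBA the log2 difference of Sesn2 was -0.31, with overlap. Ddit3, next in order of p, stood at 65.7, 49.7 and 60.8 CPM in CVST, at 46.9, 46 and 54.9 CPM in CVST+Ligation and at 41.5, 47.7 and 44.7 CPM with 4-PBA. Its CVST+Ligation libraries overlapped CVST, with a log2 difference of -0.25, and all 4-PBA libraries were below all CVST libraries, with -0.40. The adjusted p was 0.6 for the former and 0.23 for the latter by edgeR (quasi-likelihood test, Benjamini-Hochberg adjusted). Ddit3 and Asns, an amino acid synthesis gene of the same response with a log2 difference of -0.32, were the 2 genes of the list below an unadjusted p of 0.05 in that comparison, 11.1% of the list against 15.4% of all genes, and DESeq2 counted 2. Ddit3 was above 0.05 there without CVST replicate 1 (0.0863), 4-PBA replicate 1 (0.0823) or 4-PBA replicate 3 (0.0514), and between CVST+Ligation and CVST it was below 0.05 without CVST replicate 2 (0.0396). Asns was above 0.05 in 4-PBA against CVST when any 1 of the libraries compared other than CVST replicate 2 was left out (0.0631 to 0.128), with total counts (0.0717) and with limma at pseudocounts of 1 (0.0619) and 0.1 (0.0655). Between 4-PBA and CVST+Ligation Asns differed by -0.24, with all 4-PBA libraries lower. The counts with single libraries left out ran from 0 to 3, from 0 to 1 and from 0 to 4 in the 3 comparisons.

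A list of transcription factors (14 tested) held FoxO, JUN, FOS and E2F genes, and also Mybl2, Rela, Nfkb1, Stat3 and Creb1. It is not confined to drivers of BH3-only genes. In it, 3 were lower and 0 higher between CVST+Ligation and CVST at an unadjusted p below 0.05, and DESeq2 also counted 3. They were E2f1, Junb and Fos, the last named outside the rule. They are 21.4% of the list, against 9.64% of all genes. With single libraries left out the count ran from 2 to 4. E2f1 and Junb kept their calls in each of those settings, so at the count of 2 Fos had lost its own. E2f1, a cell cycle factor that can induce several BH3-only genes, stood at 18.3, 21.6 and 14.9 CPM in CVST, at 7.93, 6.85 and 9.63 CPM in CVST+Ligation and at 5.26, 8.88 and 8.57 CPM with 4-PBA. Both ligated groups were below CVST in every library. Its log2 difference between CVST+Ligation and CVST was -1.17 (SE 0.254), with an adjusted p of 0.273 by edgeR (quasi-likelihood test, Benjamini-Hochberg adjusted). Junb, an immediate early gene, held 173, 48.2 and 198 CPM in CVST against 44.1, 32.7 and 62.4 CPM in CVST+Ligation, and CVST replicate 2 lay among the latter. Fos held 218, 24.1 and 210 CPM in CVST against 33.3, 55.2 and 54.2 CPM in CVST+Ligation, with CVST replicate 2 the lowest of these 6 libraries. In 4-PBA against CVST+Ligation the list had 0 genes below 0.05 in edgeR's quasi-likelihood test and 0 in DESeq2, against 3.23% and 3.87% of all genes. In 4-PBA against CVST, E2f1, Junb and Fos were lower and Nfkb1 (0.48) and Foxo4 (0.53) higher, Fos again outside the rule. They are 35.7% of the list, against 15.4% of all genes. With single libraries left out 3 to 5 genes were below 0.05, Foxo4 being lost without CVST replicate 2 (0.0659) or 4-PBA replicate 1 (0.0665) and Nfkb1 without CVST replicate 3 (0.0635) or 4-PBA replicate 3 (0.065). E2f1 and Junb kept their calls in each of these settings, so at the count of 3 Fos had lost its own. Foxo4 and Nfkb1 also had the smallest p between 4-PBA and CVST+Ligation, with log2 differences of 0.31 and 0.18, and without CVST+Ligation replicate 2 the unadjusted p of Foxo4 was 0.0177. The medians of this list were -0.14, -0.012 and -0.11 in the 3 comparisons.

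Markers of brain regions differed between the groups in which the BCL2 family was compared. All 10 of 10 striatal markers were lower in CVST+Ligation than in CVST at an unadjusted p below 0.05, against 9.64% of all genes, which is also the share beside each count after ligation below. Their summed level was 1930, 1460 and 1070 CPM in CVST, 229, 298 and 537 CPM in CVST+Ligation and 537, 1360 and 269 CPM with 4-PBA, with Penk most abundant. Of the midbrain dopamine markers, 9 of 10 were higher after ligation, with sums of 50.3, 69 and 133 CPM in CVST, 270, 238 and 239 CPM in CVST+Ligation and 254, 252 and 313 CPM with 4-PBA. Ddc was the most abundant gene over the 9 libraries together and Nr4a2 in each CVST library, with 32.3, 50.6 and 113 CPM, and 3, 4 and 3 of the 10 were at 0 in the CVST libraries. Thalamic markers were higher for 7 of 10 after ligation, with sums of 90.7, 95.3 and 135 CPM in CVST, 275, 859 and 408 CPM in CVST+Ligation and 698, 505 and 864 CPM with 4-PBA. Calb2 was most abundant over the 9 libraries together, and Prkcd in CVST replicates 1 and 2, with 21.8 and 18.1 CPM. The ligated groups thus held more midbrain and thalamic transcript than CVST in every library, and less striatal transcript except in 4-PBA replicate 2. Of the cerebellar markers, 6 of 8 tested were higher after ligation, and CVST+Ligation replicate 2 had the highest sum, with 1740 CPM against 205 to 361 CPM in the others, Calb1 being most abundant over the 9 libraries together and Pvalb in that library, with 415 CPM.

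Cortical layer markers, of which 0 were at 0 in any library, were lower for 4 of 10 after ligation, with sums of 784, 930 and 579 CPM in CVST, 534, 290 and 516 CPM in CVST+Ligation and 330, 271 and 374 CPM with 4-PBA, and Neurod6 was most abundant over the 9 libraries together. Hypothalamic markers set the 4-PBA libraries apart, 6 of 8 tested being higher than in CVST+Ligation, against 3.23% of all genes, with sums of 301, 514 and 581 CPM against 18.7, 12.7 and 57.1 CPM, and 13.3, 5.19 and 43 CPM in CVST. Pmch was most abundant in each 4-PBA library, with 213, 316 and 378 CPM, whereas in each CVST library it was Trh, with 11.1, 2.75 and 38.6 CPM. In all, 4, 2 and 1 of the 10 listed were at 0 in the CVST+Ligation libraries. Neuron markers were lower for 2 of 12 after ligation, 16.7% against 9.64% of all genes, and against CVST the 4-PBA group had 3 lower and 1 higher, 33.3% against 15.4%. They had sums of 8980, 8960 and 7900 CPM in CVST, 7630, 7400 and 8100 CPM in CVST+Ligation and 6880, 8060 and 6150 CPM with 4-PBA, Snap25 being most abundant over the 9 libraries together. Astrocyte markers were higher for 3 of 10 after ligation, 30% against 9.64% of all genes, with a median log2 difference of 0.59. Their sums were 1990, 3140 and 2150 CPM in CVST, 2670, 3870 and 2390 CPM in CVST+Ligation and 2550, 2450 and 3650 CPM with 4-PBA, Aldoc being most abundant over the 9 libraries together. Oligodendrocyte markers were higher for 7 of 10 in 4-PBA than in CVST, 70% against 15.4% of all genes, with sums of 2730, 3300 and 3620 CPM in CVST, 2740, 6130 and 4450 CPM in CVST+Ligation and 7770, 5420 and 4870 CPM with 4-PBA, Mbp being most abundant. Oligodendrocyte precursor markers were higher for 6 of 7 (85.7%) in the same comparison, with sums of 151, 150 and 135 CPM in CVST, 158, 198 and 165 CPM in CVST+Ligation and 245, 211 and 193 CPM with 4-PBA, Sox10 being most abundant over the 9 libraries together. Hippocampal markers were higher for 4 of 8 after ligation, with sums from 187 to 435 CPM in CVST, from 290 to 479 CPM in CVST+Ligation and from 255 to 416 CPM with 4-PBA, Wfs1 being most abundant in each library. Choroid plexus markers were higher for 3 of 8 in 4-PBA than in CVST+Ligation, 37.5% against 3.23% of all genes, with sums of 839, 794 and 988 CPM in CVST, 101, 22.7 and 866 CPM in CVST+Ligation and 3160, 674 and 451 CPM with 4-PBA, Ttr being most abundant in each library. Erythroid markers were higher for 2 of 5 after ligation and mural cell markers for 2 of 8, against 9.64% of all genes. The lists given here are not all that differed between the groups. The part of these differences in the levels of Pmaip1, Bcl2l11, Bok, E2f1 and the other genes was not tested.

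As a description over the 9 libraries, which share their groups and tissue composition, the 10 members gave 45 pairs of log2 CPM, of which 21 had a Pearson r above 0, with a median of -0.026. The lowest r was that of Bcl2 and Mcl1, -0.766, and the highest that of Mcl1 and Bid, 0.621. Bcl2 and Bax had -0.634, with Bcl2 low and Bax high in CVST replicate 3. The genes most like Bcl2 among 14745 others were Tdrd3 (r = 0.971), Zfp41 (0.947) and Nnt (0.942). For Bax they were Ssbp4 (r = 0.948), Slc24a5 (0.944) and Polr2f (0.936), and for Bbc3 Sclt1 (r = 0.93), Eif4ebp1 (0.92) and Cage1 (0.919). Values this high are the extremes of 14745 correlations over 9 libraries. By rank the Bbc3 genes were less alike, with Spearman rho of 0.733, 0.417 and 0.6 in that order. Those named for Bcl2 had 0.883 to 0.95, and those for Bax 0.783 to 0.85.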

How the data were processed

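RNA was sequenced from the brains of 9 mice, 3 per group, and libraries were assigned to groups by their labels. According to the submitters' processing notes, the authors used fastp, HISAT2, StringTie and RSEM on GRCm38 (mm10), with versions not given in the sources used here. The authors deposited a count per gene symbol and library, not normalized. The deposited expression values, called TPM in the methods, are FPKM, since each equals the count divided by the library total and 1 length per gene and the column sums differ. The lengths were compared with GENCODE M21.

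The fit used edgeR 4.0.16 under R 4.3.3 (TMM, filterByExpr by group, 1 quasi-likelihood model of 3 groups without covariates), and p values were adjusted by Benjamini-Hochberg over the 14746 genes tested. Genes are counted at an unadjusted and at an adjusted p below 0.05. The standard error of a log2 fold change was derived from the F statistic of the quasi-likelihood test, and the 95% interval was built from it. The interval and the unadjusted p thus rest on the same statistic. Of the genes left out, 3285 had 0 counts everywhere. With 3 libraries against 3, an exact permutation test cannot go below 0.1, so none was used, and ratios and correlations have no p. The 3 comparisons share libraries. The test was tried on simulated data. Alternatives were DESeq2 size factors, total counts, DESeq2 1.42.0, 2 other filters, a fit of only the groups compared, limma 3.58.1 on log2(FPKM) with a pseudocount of 1 or 0.1, the replicate number as a block, and each library left out. Figures were drawn with matplotlib 3.10.9.

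All 10 members are named. Of each other family or pathway list, the named genes are the 2 with the smallest p in CVST+Ligation against CVST and in 4-PBA against CVST+Ligation, and for Bcl2, Bax and Bbc3 the 3 genes with the highest Pearson r. Other names were chosen after their values were seen. The members and lists were chosen with earlier results of these data known.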

Additional observations from a re-analysis of the deposited data

How the results depend on the processing

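After adjustment, 0 of 10 members passed in edgeR, DESeq2 and limma under every alternative run, while at an unadjusted p below 0.05 the counts were 1, 0 and 0 with edgeR and 0, 0 and 0 with DESeq2. Of 444 alternative log2 fold changes of members, 6 had an unadjusted p below 0.05 and 33 had the other sign, the largest of these 0.228 in size. Between CVST+Ligation and CVST, the count of members at an unadjusted p below 0.05 went from 1 to 0 with total counts, DESeq2, every gene with at least 1 count, at least 10 counts in every library (where Pmaip1 and Bcl2l11 were not tested), only the groups compared, and the replicate block. Leaving out 1 library gave 0 to 1 there and 0 to 1 in 4-PBA against CVST. Members whose groups do not overlap numbered 0 to 2, 1 to 3 and 1 to 3 over left-out libraries in the 3 comparisons, beside 19.8% to 26.1%, 12.2% to 32.4% and 29.4% to 39.5% of all genes. Pmaip1 kept its direction between CVST+Ligation and CVST, from -1.76 to -0.81, with unadjusted p from 0.0153 to 0.195. The replicate number as a block gave Pmaip1 -1.31 with p 0.0811 in edgeR, and gene counts of 1765, 521 and 2644, but within-group deviations of libraries with the same number had r from -0.0516 to 0.324, so no pairing of the mice was shown. Signs turned between CVST+Ligation and CVST for Bcl2l1 (0.0269 with total counts, 0.0352 and 0.0356 with limma at pseudocounts 1 and 0.1), for Bcl2l11 (0.0117, 0.0413 and 0.115 in that order, 0.0171 with the block) and for Bad (0.00625, 0.00775 and 0.00801). With 1 library left out the sign also turned, over ranges in CVST+Ligation against CVST of -0.153 to 0.522 for Bcl2, -0.119 to 0.0941 for Bcl2l1, -0.135 to 0.0663 for Bbc3, -0.407 to 0.228 for Bcl2l11, -0.0582 to 0.218 for Bid, -0.125 to 0.05 for Bad. In 4-PBA against CVST+Ligation they were -0.12 to 0.598 for Bcl2, -0.436 to 0.0413 for Mcl1, -0.0145 to 0.323 for Bax, -0.2 to 0.0894 for Bbc3, -0.137 to 0.12 for Bid. In 4-PBA against CVST they were -0.00137 to 0.831 for Bcl2, -0.2 to 0.0232 for Bcl2l1, -0.454 to 0.0553 for Bax, -0.234 to 0.0622 for Bak1, -0.244 to 0.0317 for Bbc3, -0.0363 to 0.247 for Bid. The cause was not tested. Counts of genes after adjustment were 3, 0 and 18 in edgeR and 264, 22 and 855 in DESeq2. The 18 became 2 to 162 with 1 library left out, 234 with only the groups compared, 112 with every gene with at least 1 count, 6 when 10 counts were required in each library, and 87 and 134 with limma at pseudocounts 1 and 0.1. The 3 became 0 to 7 and the 0 became 0 to 2 with 1 library left out. With limma at a pseudocount of 0.1 the 3 became 13, and 0 when 10 counts were required in each library. It was 1 with only the groups compared and 1 with the block. The 0 became 1 with the block and 2 with limma at a pseudocount of 1. Depth and 3 libraries per group limit Bcl2, Bbc3, Pmaip1 and Bcl2l11 most, with 4 to 85 reads per library. Family and pathway lists and most other named genes were run under the same alternatives, an addition chosen after seeing the data. Fos, Plk2, Ywhah, Akt2 and Mapk8 are followed here only through the counts of their lists.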
